A study of Mus musculus with 8 samples.

Results

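The genes described here encode the chains of the mouse MHC class II molecules, the proteins that load them and their master regulator. The list names 9 genes: the invariant chain *Cd74*, the chains *H2-Aa*, *H2-Ab1* and *H2-Eb1*, the peptide-loading factor genes *H2-DMa* and *H2-DMb1*, their inhibitor genes *H2-Oa* and *H2-Ob*, and the regulator *Ciita*. They were chosen by gene symbol, and 8 of the 9 had at least 1 probe set annotated to that gene alone, among 18194 genes measured in this way. These 8 genes were read by 16 probe sets, of 34958 that are annotated to 1 gene. *H2-DMb1* was read only by probe sets that it shares with its close copy *H2-DMb2*. For each gene the probe set whose mean over the arrays was highest is the main one, and the other probe sets are given beside it.

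Hypothalamus RNA of 4 *Nestin-Pex5-/-* mice and 4 wild type mice, all aged 10 weeks and untreated, was hybridised to Affymetrix Mouse Genome arrays, 1 mouse per array. The knockout came from crossing *Nestin-Cre* with *Pex5-loxP* mice on a Swiss Webster background, an outbred stock, and *Pex5* encodes the receptor that imports proteins into peroxisomes. Cre under the *Nestin* promoter acts in neural progenitors, from which neurons, astrocytes and oligodendrocytes descend, whereas microglia and blood-derived cells arise elsewhere. The comparison asked how hypothalamic expression differs when neural cells lack functional peroxisomes, and the values are log2 intensities after RMA, in which a difference of 1 is a doubling.

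MHC class II molecules are pairs of an alpha and a beta chain that show peptides from endocytosed proteins to CD4+ T cells. In the endoplasmic reticulum the invariant chain fills their groove, lysosomal proteases trim it to a short fragment, and H2-DM exchanges this fragment for a peptide while H2-O holds H2-DM back. In the healthy brain class II protein is found mainly on macrophages of the meninges, choroid plexus and vessels and on dendritic cells, little on resting microglia, and interferon gamma raises it through *Ciita*.

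CIITA does not touch DNA itself but joins factors that sit on a conserved pair of elements, the X and Y boxes, in the promoters of class II genes. The promoter windows of 5 genes are shown because they carry this shared arrangement. The sequences come from RefSeq's GRCm38.p6 annotation of the C57BL/6J genome, not from the mice studied, and run 5′ to 3′ on the gene's strand. The first capitals mark an X1 core (letters GNAAC) and the second a Y core (letters TGATTGG, the inverted CCAAT sequence).
*H2-Aa*, chr17:34287859-34287912, minus strand: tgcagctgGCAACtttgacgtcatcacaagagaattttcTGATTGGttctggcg
*H2-Eb1*, chr17:34305768-34305820, plus strand: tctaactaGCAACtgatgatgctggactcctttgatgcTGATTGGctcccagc
*H2-DMb1*, chr17:34153089-34153142, plus strand: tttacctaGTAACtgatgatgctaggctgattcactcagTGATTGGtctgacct
*H2-Oa*, chr17:34092295-34092348, plus strand: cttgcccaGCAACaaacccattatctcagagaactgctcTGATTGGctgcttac
*H2-Ob*, chr17:34238810-34238860, plus strand: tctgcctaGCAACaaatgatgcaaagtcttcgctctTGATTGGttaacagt

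The start of the X1 core lay 28 to 31 bases before the start of the Y core in all 5 windows, and the Y core began 45 to 63 bases before the annotated start of transcription. Promoters of 6 of the 9 genes were searched, those of *Cd74*, *H2-Ab1* and *Ciita* not being used here, from 250 bases before to 50 after the start, on both strands. Of the 6, *H2-DMa* had neither the Y core nor the pair in either of its windows. Among 32851 promoters of the same length, 7.82% held the Y core, 84.8% the X1 core and 0.852% the X1 core followed on the same strand by the Y core within 20 to 50 bases. The letters and the distance were set after the members' promoters had been seen, and a match is a description of the letters and not a binding site.

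The array medians lay between 6.80 and 6.81 in *Nestin-Pex5-/-* and between 6.70 and 6.84 in wild type. The first principal component separated the genotypes, and wild type replicate 4 stood apart on the second. In the comparison over 18194 genes with limma (Benjamini-Hochberg adjustment, threshold 0.05), 724 genes were higher and 144 lower in *Nestin-Pex5-/-*. The 2 probe sets of *Pex5* itself did not differ, with log2 fold changes of -0.07 and 0.01 and limma adjusted p = 0.728 and 0.953. Their place relative to the excised exons is not given in the sources used here, so they do not check the labels. As for the labelled tissue, the mean of 16 hypothalamic identity genes read 8.99, 8.68, 8.57 and 8.50 in *Nestin-Pex5-/-* replicates 7 to 10. In wild type replicates 1 to 4 it read 8.99, 8.97, 8.72 and 8.97, so that *Nestin-Pex5-/-* replicates 9 and 10 were the lowest arrays. Whether the dissected tissue differed between arrays was not tested. Of the 16 genes 1 was lower, *Nkx2-1* (-0.32, limma adjusted p = 0.037, and up to 0.117 when single arrays were left out). Of 8 reference genes 1 was higher, the lysosomal enzyme gene *Gusb* (0.85, adjusted p = 8.9e-05).

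Among the class II genes, 1 of 8 passed the test, the H2-O beta chain gene *H2-Ob*, which was higher in *Nestin-Pex5-/-*, and none passed in the other direction. The share of all genes called was 3.98% for higher and 0.791% for lower. Without adjustment 2 of the 8 had p under 0.05, *H2-Ob* and *Cd74*, both higher. In these 2 genes every *Nestin-Pex5-/-* array lay above every wild type array, an arrangement that 6.63% of all genes had, and in none was every *Nestin-Pex5-/-* array below (4.51% of all genes). The median log2 fold change was 0.55 over the 8 genes and -0.03 over all genes. What stood out in *Cd74*, *H2-Aa* and *H2-Ab1* was the spread among the *Nestin-Pex5-/-* arrays, shown with all single values in the plot of the 8 genes by array. More cells that express a gene and more RNA per cell cannot be told apart in such bulk tissue.

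**Figure D1:**
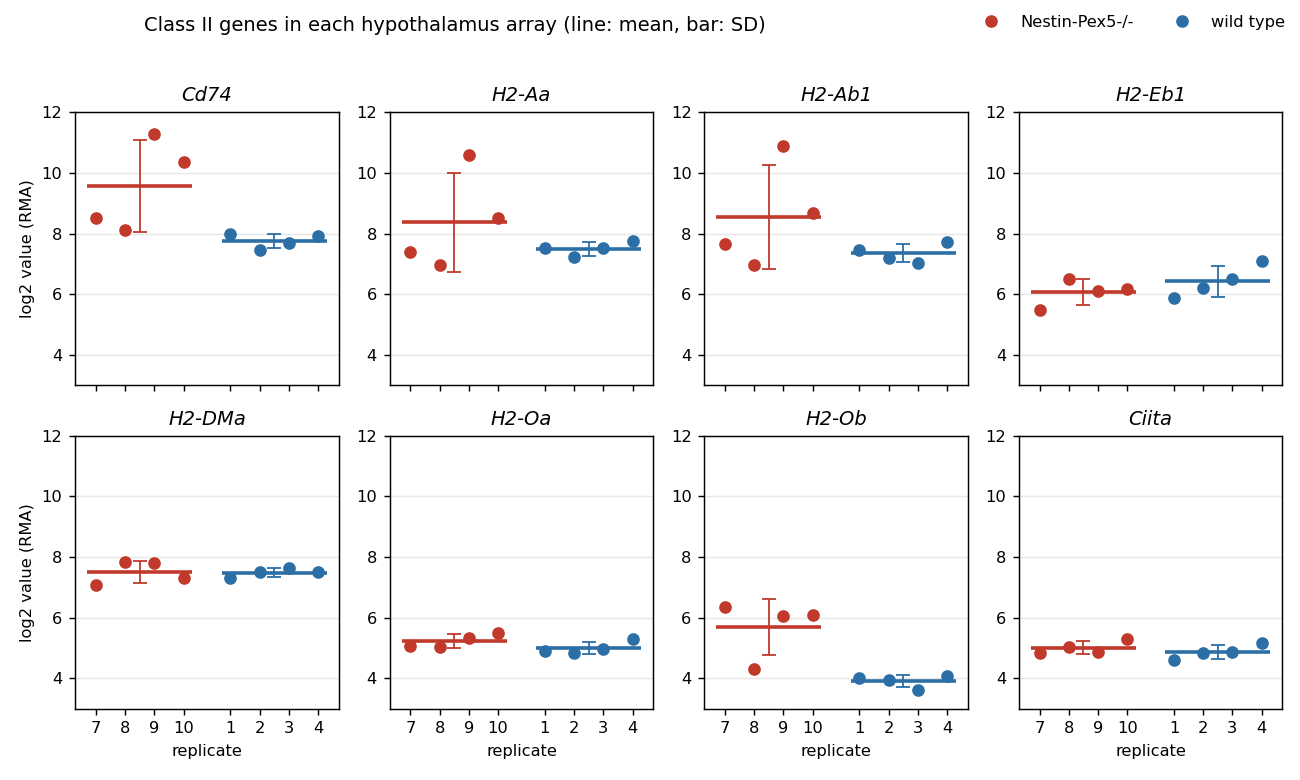
Log2 values (RMA, vertical axis) of the 8 measured class II genes in each array, with *Nestin-Pex5-/-* replicates 7 to 10 in red and wild type replicates 1 to 4 in blue; lines are means and bars are SD (n = 4 each). *Cd74*, *H2-Aa* and *H2-Ab1* reached 11.28, 10.60 and 10.87 in *Nestin-Pex5-/-* replicate 9, while replicates 7 and 8 lay near the wild type arrays.

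*Cd74*, the invariant chain that guards the groove of new class II molecules, read 8.52, 8.11, 11.28 and 10.36 in *Nestin-Pex5-/-* replicates 7 to 10. In wild type replicates 1 to 4 it read 7.98, 7.46, 7.68 and 7.93. All 4 *Nestin-Pex5-/-* arrays were above all 4 wild type arrays, by a little in replicates 7 and 8 and by much in replicates 9 and 10. Over the wild type mean the single *Nestin-Pex5-/-* arrays stood 1.70, 1.28, 11.5 and 6.07 times as high. The means were 9.57 ± 1.50 in *Nestin-Pex5-/-* and 7.76 ± 0.24 in wild type (SD, n = 4 each), a log2 fold change of 1.81 (SE 0.61), or 3.51-fold. This difference did not pass the test over all genes, with a limma adjusted p of 0.156 and an unadjusted p of 0.0147. The exact permutation test of the difference gave its smallest possible p, 0.029 (two-sided, 70 assignments, 1 of 8 such tests of members). Leaving out *Nestin-Pex5-/-* replicate 9 lowered the log2 fold change to 1.24, and weighting the arrays raised it to 2.50 and past the threshold (limma adjusted p = 0.0246).

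*H2-Ab1* encodes the beta chain of the class II molecule I-A. Its main probe set read 7.66, 6.97, 10.87 and 8.69 in *Nestin-Pex5-/-* replicates 7 to 10, and 7.47, 7.19, 7.04 and 7.72 in the 4 wild type arrays. Replicates 9 and 10 of *Nestin-Pex5-/-* were above all wild type arrays, replicate 7 was among them and replicate 8 was below them all. The single *Nestin-Pex5-/-* arrays stood at 1.24, 0.769, 11.5 and 2.52 times the wild type mean. With means of 8.55 ± 1.70 in *Nestin-Pex5-/-* and 7.35 ± 0.30 in wild type, the log2 fold change of 1.20 (SE 0.69) was within the spread between arrays (limma adjusted p = 0.429, exact permutation p = 0.29). Without *Nestin-Pex5-/-* replicate 9 it was 0.42.

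*H2-Aa* encodes the alpha chain that pairs with it. In *Nestin-Pex5-/-* replicates 7 to 10 its main probe set read 7.41, 6.97, 10.60 and 8.50, against 7.51, 7.22, 7.51 and 7.77 in the wild type arrays. The same arrays were high and low as for *H2-Ab1*, at 0.937, 0.690, 8.58 and 2.0 times the wild type mean. The means were 8.37 ± 1.62 in *Nestin-Pex5-/-* and 7.50 ± 0.23 in wild type, with a log2 fold change of 0.87 (SE 0.65, limma adjusted p = 0.552, exact permutation p = 0.40). Leaving out *Nestin-Pex5-/-* replicate 9 gave 0.12.

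The other probe sets of *H2-Aa* and *H2-Ab1* showed the same arrays as high, except 1443783_x_at of *H2-Aa*, on which only *Nestin-Pex5-/-* replicate 9 was. The most spread of them, 1452431_s_at of *H2-Aa*, read 7.42, 6.11, 11.12 and 9.50 in *Nestin-Pex5-/-* replicates 7 to 10, and 7.47, 6.80, 6.58 and 7.21 in wild type (log2 fold change 1.52, limma adjusted p = 0.478). For *H2-Ab1*, 1451721_a_at read 5.96, 5.75, 9.13 and 7.79 in *Nestin-Pex5-/-*, and 5.86, 5.33, 5.81 and 6.03 in wild type (1.40, adjusted p = 0.360). The third *H2-Ab1* probe set, 1425477_x_at, had a log2 fold change of 0.96 and an adjusted p of 0.509. Smaller differences came from 1438858_x_at of *H2-Aa*, with 0.32 (adjusted p = 0.365), and 1443783_x_at, with 0.06 (adjusted p = 0.801). This probe set read 3.23 to 3.61 in *Nestin-Pex5-/-* and 3.23 to 3.30 in wild type, close to the lowest values on the arrays.

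Over the 8 probe sets of *Cd74*, *H2-Aa* and *H2-Ab1*, *Nestin-Pex5-/-* replicate 9 was the highest array in 8. The order of the *Nestin-Pex5-/-* arrays was 9, 10, 7, 8 in 7 of them, and in 7 both replicate 9 and replicate 10 exceeded every wild type array. *Nestin-Pex5-/-* replicate 8 was the lowest of all 8 arrays in 4. These probe sets share the arrays and in part the transcripts, so they are repeated readings of the same 4 mice. None of the 8 probe sets beside the main ones passed the test over all probe sets annotated to 1 gene, where 1049 of 34958, or 3.0%, were called higher and 0.472% lower.

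**Figure D2:**
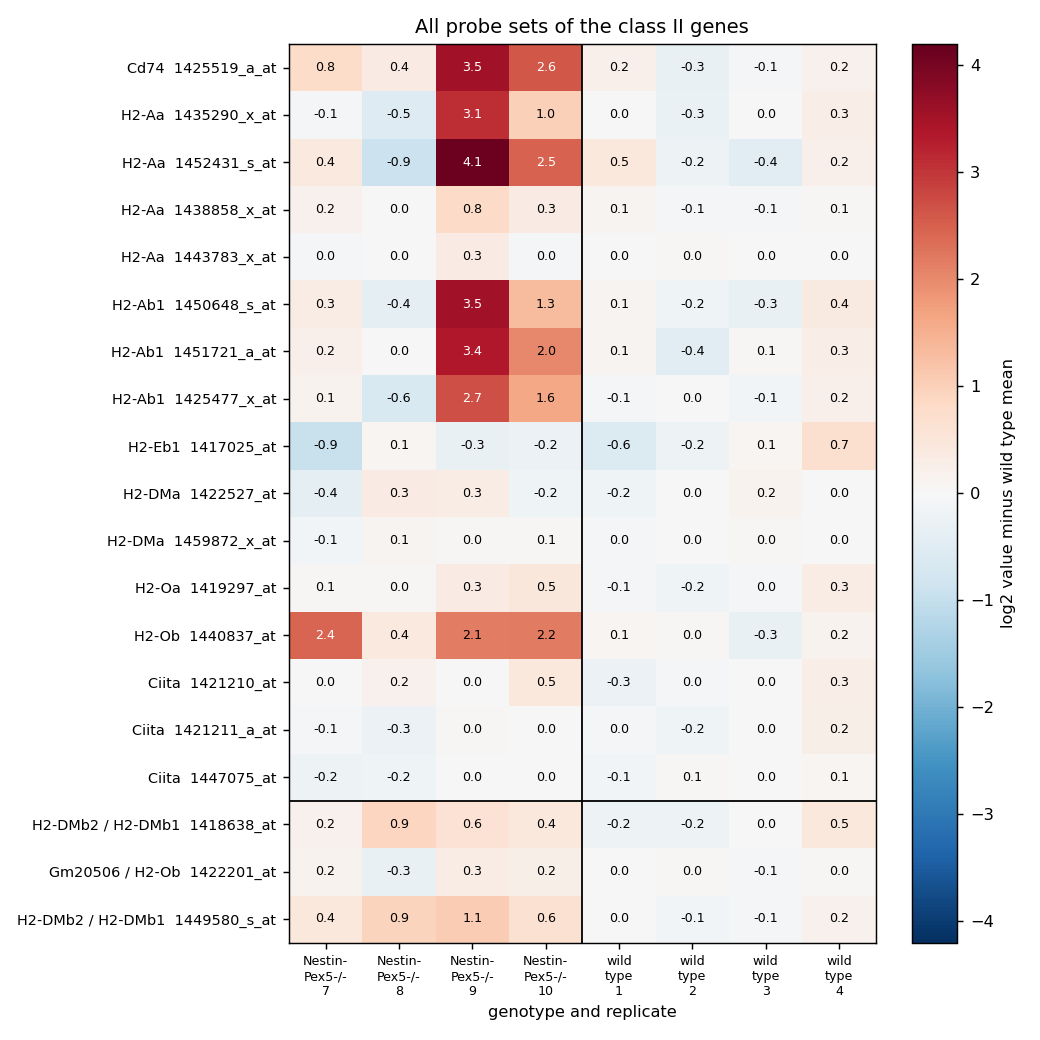
Difference of each log2 value from the wild type mean of its probe set (colour and printed value), for all 16 probe sets of the class II genes and, below the horizontal line, 3 probe sets shared with another gene. Columns are the 4 *Nestin-Pex5-/-* and then the 4 wild type arrays; the main probe sets of *Cd74*, *H2-Aa* and *H2-Ab1* are darkest in *Nestin-Pex5-/-* replicate 9, at 3.52, 3.10 and 3.52, while 1438858_x_at and 1443783_x_at of *H2-Aa* are pale there.

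Ranked by SD among the *Nestin-Pex5-/-* arrays, *H2-Ab1*, *H2-Aa* and *Cd74* stood at 4, 5 and 6 of 18194 genes. Among the wild type arrays their SDs ranked 1052, 2486 and 2041. The spread of these genes was thus wider among the *Nestin-Pex5-/-* arrays than among the wild type arrays, a difference that was not tested. Among the wild type arrays too it was above that of most genes.

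*H2-Eb1*, the beta chain of the other class II molecule, I-E, did not share this pattern. It read 5.50, 6.51, 6.12 and 6.18 in *Nestin-Pex5-/-* replicates 7 to 10, and 5.86, 6.22, 6.50 and 7.11 in the wild type arrays. The genotypes overlapped, and *Nestin-Pex5-/-* replicates 9 and 10 were in the middle of the range. The log2 fold change was -0.35 (SE 0.27), with means of 6.08 ± 0.42 in *Nestin-Pex5-/-* and 6.42 ± 0.53 in wild type (limma adjusted p = 0.568, exact permutation p = 0.34). Its I-E partner *H2-Ea*, which was no member of the list, had a log2 fold change of -0.15 (adjusted p = 0.622), and the related beta chain gene *H2-Eb2* one of -0.13 (adjusted p = 0.490).

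The loading factor H2-DM consists of the products of *H2-DMa* and *H2-DMb1* or *H2-DMb2*. *H2-DMa* read 7.09, 7.83, 7.81 and 7.31 in *Nestin-Pex5-/-* and 7.30, 7.50, 7.65 and 7.49 in wild type. The *Nestin-Pex5-/-* arrays lay on both sides of the wild type range, and replicate 8, low for *H2-Aa* and *H2-Ab1*, was the highest here. The log2 fold change was 0.03 (SE 0.16), with means of 7.51 ± 0.37 in *Nestin-Pex5-/-* and 7.49 ± 0.14 in wild type (limma adjusted p = 0.955, exact permutation p = 0.94). A further probe set of the gene gave 0.02 (adjusted p = 0.931).

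*H2-DMb1* had no reading of its own. The probe set 1449580_s_at, shared by *H2-DMb1* and *H2-DMb2*, read 7.08, 7.58, 7.72 and 7.28 in *Nestin-Pex5-/-* and 6.63, 6.54, 6.58 and 6.85 in wild type. All *Nestin-Pex5-/-* arrays were above all wild type arrays, with means of 7.42 ± 0.29 in *Nestin-Pex5-/-* and 6.65 ± 0.14 in wild type. The log2 fold change of 0.77 (SE 0.14), or 1.70-fold, passed the limma test over all 45101 probe sets (adjusted p = 0.020, exact permutation p = 0.029), in which 2.32% were called higher and 0.268% lower. The other shared probe set, 1418638_at, read 5.37 to 6.10 in *Nestin-Pex5-/-* and 4.96 to 5.64 in wild type, and its log2 fold change of 0.54 did not pass (adjusted p = 0.237). The probe set of *H2-DMb2* alone had a log2 fold change of 0.02 (adjusted p = 0.952 over genes). Which of the copies gave the shared signal cannot be read from these probe sets.

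H2-O, made of the products of *H2-Oa* and *H2-Ob*, inhibits H2-DM and is best known from B cells. *H2-Ob* read 6.34, 4.32, 6.05 and 6.08 in *Nestin-Pex5-/-* replicates 7 to 10, and 4.00, 3.96, 3.61 and 4.07 in wild type. Replicates 7, 9 and 10 formed a high group while replicate 8 lay just above the wild type arrays, an order other than that of *Cd74* and the I-A chains. Over the wild type mean the *Nestin-Pex5-/-* arrays stood at 5.40, 1.33, 4.41 and 4.51 times. The log2 fold change was 1.79 (SE 0.38), or 3.46-fold, with means of 5.70 ± 0.93 in *Nestin-Pex5-/-* and 3.91 ± 0.20 in wild type (limma adjusted p = 0.0261, exact permutation p = 0.029).

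The call of *H2-Ob* depended on single arrays and on the variance model, since the adjusted p was 0.0708 with trend and robust settings and 0.144 with the gene's own variance only. Leaving out any one of *Nestin-Pex5-/-* replicates 7, 9 and 10 or wild type replicates 1, 2 and 3 raised the adjusted p to between 0.0615 and 0.0887, while the log2 fold change stayed between 1.58 and 1.82. Without *Nestin-Pex5-/-* replicate 8 the log2 fold change was 2.25 (adjusted p = 1.8e-05), and without wild type replicate 4 it was 1.84 (adjusted p = 0.0346). The gene was read by 1 probe set of its own. Another, shared with *Gm20506*, read 5.46, 4.99, 5.61 and 5.53 in *Nestin-Pex5-/-* replicates 7 to 10, and 5.23 to 5.35 in wild type (log2 fold change 0.10, limma adjusted p = 0.789). On both probe sets *Nestin-Pex5-/-* replicates 7, 9 and 10 were above every wild type array and replicate 8 was the lowest of its genotype. On the shared one the differences were much smaller, and replicate 8 was below the wild type arrays.

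*H2-Oa* read 5.06, 5.05, 5.35 and 5.49 in *Nestin-Pex5-/-* and 4.90, 4.83, 4.96 and 5.30 in wild type. The genotypes overlapped at wild type replicate 4, and the log2 fold change was 0.24 (SE 0.13, limma adjusted p = 0.394, exact permutation p = 0.17, and adjusted p = 0.0331 with array weights). Its means were 5.24 ± 0.22 in *Nestin-Pex5-/-* and 4.998 ± 0.21 in wild type.

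*Ciita*, the transactivator on which class II transcription depends, read 4.85, 5.03, 4.89 and 5.31 in *Nestin-Pex5-/-* and 4.61, 4.82, 4.87 and 5.15 in wild type. On this main probe set *Nestin-Pex5-/-* replicate 9, the highest array for the I-A chains, was near the bottom of the range of its genotype. The log2 fold change was 0.16 (SE 0.13), with means of 5.02 ± 0.21 in *Nestin-Pex5-/-* and 4.86 ± 0.22 in wild type (limma adjusted p = 0.597, exact permutation p = 0.37). Its other probe sets gave -0.08 (adjusted p = 0.741) and -0.09 (adjusted p = 0.615). The first, 1421211_a_at, read 4.78, 4.62, 4.92 and 4.85 in *Nestin-Pex5-/-* replicates 7 to 10 and 4.70 to 5.11 in wild type. The second, 1447075_at, read 3.76, 3.79, 3.96 and 3.98 in *Nestin-Pex5-/-* and 3.86 to 4.03 in wild type. On both, replicates 9 and 10 were the highest of their genotype but within the wild type range.

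The list of regulators of class II transcription, with the factors bound at the X and Y boxes and the interferon gamma pathway, had 18 of 19 genes measured, of which 5 were higher and none lower in *Nestin-Pex5-/-*. *Irf8*, a transcription factor of myeloid cells, read 8.28, 8.56, 8.45 and 8.60 in *Nestin-Pex5-/-* and 6.17, 5.96, 5.92 and 6.32 in wild type, a log2 fold change of 2.38 (adjusted p = 1.1e-06). *Spi1*, which encodes the myeloid factor PU.1, rose by 1.24 (adjusted p = 5.6e-04), and *Nfya*, a subunit of the factor NF-Y that binds the Y box, by 0.48 (adjusted p = 0.0065). With the mean of all its probe sets *Nfya* was at 0.30 and did not pass (adjusted p = 0.0745). The interferon gamma receptor genes *Ifngr1* and *Ifngr2* were both higher by 0.43. Of the RFX complex that binds the X1 box none passed, with log2 fold changes of 0.08 for *Rfx5*, 0.10 for *Rfxank* and -0.13 for *Rfxap*. *Ifng* itself, with a mean of 3.58 in *Nestin-Pex5-/-* and 3.66 in wild type, gave -0.08 (adjusted p = 0.579).

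The 15 genes for loading and turnover of class II were all measured, and 10 were higher and none lower. Cathepsin S, encoded by *Ctss*, trims the invariant chain in macrophages and dendritic cells, and it read 13.01, 13.04, 13.14 and 13.20 in *Nestin-Pex5-/-* and 11.19, 11.05, 10.96 and 11.40 in wild type. Its 4 *Nestin-Pex5-/-* arrays lay within 0.2 of each other, and the log2 fold change was 1.95 (adjusted p = 2.2e-06). The lysosomal protease genes *Ctsh* and *Ctsz* rose by 1.93 (adjusted p = 5.0e-04) and 1.75 (adjusted p = 6.2e-07). *Ifi30*, a lysosomal reductase that unfolds antigens, was higher by 0.98, the protease gene *Lgmn* by 0.83 and *Marchf8*, a ligase that removes class II from the surface, by 0.32. The *Nestin-Pex5-/-* arrays were less even in some of these genes. In replicates 7 to 10 *Ctsh* read 9.11, 9.55, 9.94 and 9.88 and *Ifi30* 7.33, 7.45, 8.08 and 7.84, with 9 and 10 the highest. *Ctsz*, at 12.03, 12.18, 12.06 and 12.12, did not have this order. *Ctsf*, *Ctse*, *Sppl2a*, *Marchf1* and *Mif*, a ligand of CD74, did not pass.

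Of 7 genes that costimulate or restrain CD4+ T cells, 4 were higher and none lower. The adhesion gene *Icam1* rose by 2.04 (adjusted p = 4.3e-05), *Cd86*, a ligand of CD28, by 1.39 (adjusted p = 1.5e-05, and by 2.34 on the probe set of smallest p) and *Cd274*, which encodes PD-L1, by 0.49 (adjusted p = 0.0052). Taken with the other class II genes, these pathway lists held 43 measured genes, of which 19 were higher (44.2%, against 3.98% of all genes) and none lower, with a median log2 fold change of 0.22. The lists were chosen with earlier results of these data known.

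**Figure D3:**
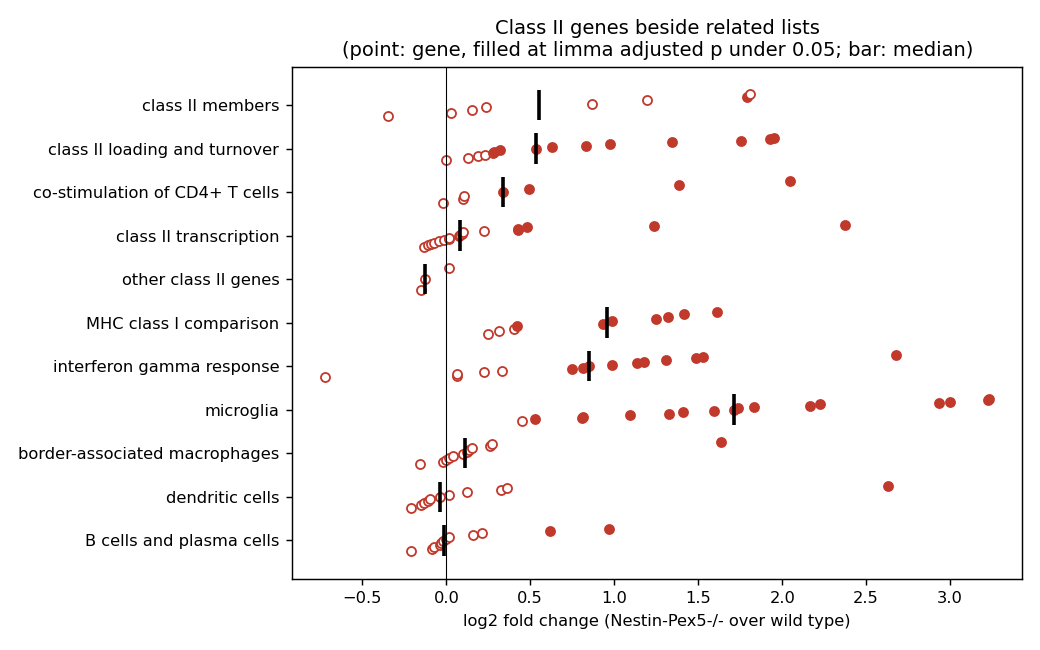
Log2 fold change (*Nestin-Pex5-/-* over wild type, horizontal axis) of each measured gene in the class II list and 10 related lists; filled points passed the limma test and vertical bars are medians. The class II list has 1 filled point of 8 and a median of 0.55, and the microglia list 16 of 17 and a median of 1.71.

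MHC class I, which shows peptides from inside the cell to CD8+ T cells, served as a comparison. Of 10 measured genes 7 were higher and none lower, with a median log2 fold change of 0.96, and *B2m*, its light chain, read 12.90, 13.01, 12.91 and 13.05 in *Nestin-Pex5-/-* and 11.48, 11.29, 11.22 and 11.43 in wild type. The SD of *B2m* among the *Nestin-Pex5-/-* arrays was 0.072, that of *Cd74* 1.50. Of 15 measured genes that respond to interferon gamma 10 were higher, among them *Cxcl10* by 2.68 (adjusted p = 2.5e-05), *Gbp2* by 1.53 (adjusted p = 2.0e-04) and *Gbp3* by 1.49 (adjusted p = 1.7e-04). Their mean per array was 7.03, 7.21, 7.20 and 7.28 in *Nestin-Pex5-/-* replicates 7 to 10, and 6.31, 6.18, 6.30 and 6.54 in wild type, so that it did not set replicates 9 and 10 apart from 7 and 8. Single genes differed in this. *Gbp3* read 7.61, 7.89, 8.10 and 8.30 in *Nestin-Pex5-/-* replicates 7 to 10, with 9 and 10 the highest, whereas *Gbp2* and *Cxcl10* did not have this order. The 5 genes of this list that did not pass were *Cxcl11* (0.33), *Irf1* (0.22), *Cxcl9* (0.06), *Socs1* (0.06) and *Ido1*. *Ido1* went in the other direction, at -0.72 (limma adjusted p = 0.241).

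On chromosome 17 most class II genes lie side by side with genes of class I processing. The proteasome subunit genes *Psmb8* and *Psmb9* lie between *H2-DMb1* and *H2-Ob*, and they were higher by 1.25 (adjusted p = 2.0e-05) and 0.93 (adjusted p = 0.0015), where the mean of the probe sets of *Psmb8* gave 0.71 (adjusted p = 2.3e-04). The peptide transporter genes *Tap1* and *Tap2* beside them had log2 fold changes of 0.31 (adjusted p = 0.088) and 0.41 (adjusted p = 0.127). With *H2-Ob*, 3 of 18 measured genes of the region passed the test. *Brd2* and *Rxrb*, which encode general regulators, gave 0.05 and -0.04, and the flanking genes *Btnl2*, *Notch4* and *Col11a2* -0.16, -0.33 and 0.21, none past the threshold. With array weights *Tap1* (adjusted p = 0.0175), *Tap2* (0.0451) and *Col11a2* (0.0285) passed it.

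**Figure D4:**
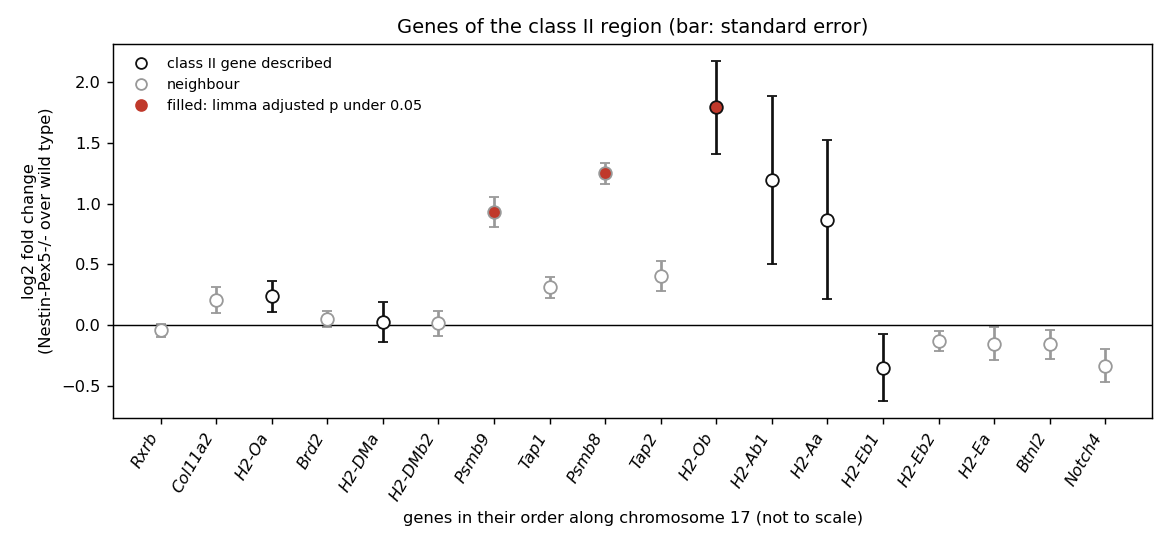
Log2 fold change (*Nestin-Pex5-/-* over wild type, vertical axis, with SE) of the measured genes of the class II region in their order on chromosome 17; black points are class II genes of the list, grey their neighbours, and filled points passed the limma test. *Psmb9*, *Psmb8* and *H2-Ob* are filled, and the SE of *H2-Ab1* and *H2-Aa* (0.69 and 0.65) exceed those of their neighbours.

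The cell types that can carry class II were followed through lists of marker genes. Of the microglia list 16 of 17 measured genes were higher, with *C1qb* up by 3.23, *C1qc* by 3.22 and *Adgre1*, a macrophage surface antigen gene, by 2.998. The microglia mean was 9.50, 9.83, 9.68 and 9.80 in *Nestin-Pex5-/-* replicates 7 to 10, and 7.97, 7.81, 7.91 and 8.05 in wild type. Microglia markers were thus high in all 4 *Nestin-Pex5-/-* arrays, including replicates 7 and 8, in which the I-A chains were near wild type.

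The 12 genes of border-associated macrophages averaged 6.17, 6.19, 6.48 and 6.39 in *Nestin-Pex5-/-* replicates 7 to 10, and 5.97, 5.999, 6.09 and 6.32 in wild type. In 9 of the 12 genes *Nestin-Pex5-/-* replicates 9 and 10 were both above replicates 7 and 8, as for *Cd74*, *H2-Aa* and *H2-Ab1*. Some of the gaps were small, and the share of all genes with this order was not counted, so the 9 have no background to be read against. *Mrc1*, the mannose receptor gene, read 6.10, 6.31, 6.94 and 6.83 in *Nestin-Pex5-/-* and 6.22 to 6.56 in wild type. *F13a1* read 6.19, 6.44, 7.16 and 6.95 in *Nestin-Pex5-/-* and 6.44 to 6.82 in wild type, and the lectin gene *Clec10a* read 5.604, 5.76, 6.38 and 6.29 in *Nestin-Pex5-/-* and 5.45 to 6.21 in wild type. These 3 genes did not pass the test. In them, as in *Cd163* and *Cbr2*, both *Nestin-Pex5-/-* replicates 9 and 10 exceeded every wild type array. In *Pf4*, *Folr2*, *Lyve1* and *Cd209f* replicates 9 and 10 were within the wild type range. In *Stab1* and *Siglec1* the arrays had neither order. *Ms4a7* alone had replicates 9 and 10 both below 7 and 8, at 8.26, 7.83, 6.96 and 6.92, against 5.66 to 6.21 in wild type. It was also the only gene of the list past the threshold (log2 fold change 1.63, adjusted p = 0.0091, or 0.80 when its probe sets were averaged), and its call was lost with its own variance only (adjusted p = 0.0824). Without *Ms4a7*, left out after its values were seen, the mean of the other 11 genes was 5.98, 6.04, 6.44 and 6.35 in *Nestin-Pex5-/-* replicates 7 to 10, and 5.98, 6.02, 6.13 and 6.33 in wild type. Dendritic cell genes had 1 of 11 higher, *Itgax*, which encodes CD11c and is also made by reactive microglia, by 2.63 (adjusted p = 2.6e-06). Their mean was 6.18, 6.23, 6.33 and 6.34 in *Nestin-Pex5-/-* and 5.98, 5.92, 6.08 and 6.12 in wild type. This mean includes *Itgax*, and the median log2 fold change of the dendritic cell list was -0.04.

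Of 12 measured genes of B cells and plasma cells *Ighm* (0.97, adjusted p = 0.016) and *Cd22* (0.62, adjusted p = 0.0039) were higher. The other 10 did not pass the test, and the median log2 fold change of the list was -0.01. The call of *Ighm* depended on the probe set, with 0.15 and an adjusted p of 0.339 for the mean of its probe sets and 1.38 for that of smallest p, and it was lost without *Nestin-Pex5-/-* replicate 8 (adjusted p = 0.0579), without wild type replicate 2 (0.0522) and with its own variance only (0.105). For this cell type the list mean ranged from 5.27 to 5.43 in *Nestin-Pex5-/-* and from 5.14 to 5.35 in wild type. None of the 10 measured T cell genes passed, with *Cd4*, the receptor that binds class II, at -0.22 (adjusted p = 0.428) and *Cd3e* at -0.15 (adjusted p = 0.395). Of 10 genes of monocytes and neutrophils only *Lcn2*, which astrocytes also make, was higher, by 2.22 (adjusted p = 0.0071, and 0.0732 with its own variance only).

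Meningeal fibroblast genes marked the tissue around the brain, and none of 10 passed (median -0.41, *Dcn* -0.50, *Igf2* -0.49). Their mean was 7.12, 7.35, 8.44 and 8.40 in *Nestin-Pex5-/-* replicates 7 to 10, and 8.20, 8.20, 7.94 and 8.57 in wild type. Among the *Nestin-Pex5-/-* arrays replicates 9 and 10 were thus the high ones for these genes as for *Cd74*, *H2-Aa* and *H2-Ab1*, but for these genes they were within the wild type range and replicates 7 and 8 below it, whereas for the class II genes replicates 9 and 10 exceeded it. The mean of *Cd74*, *H2-Aa* and *H2-Ab1* per array was 7.87, 7.35, 10.92 and 9.19 in *Nestin-Pex5-/-* and 7.29 to 7.81 in wild type. The part of meningeal or border tissue in the class II values was not tested. Choroid plexus genes were lowest in wild type replicate 4, at 6.82, against 7.93 to 8.53 in *Nestin-Pex5-/-* and 8.53 to 9.06 in the other wild type arrays (*Ttr* 0.76, adjusted p = 0.676, *Clic6* -0.59, adjusted p = 0.401), and the endothelial (*Slco1a4* 0.03, *Itm2a* -0.08) and red cell lists (*Hba-a2* -0.12, *Alas2* -0.41) held no gene past the threshold.

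**Figure D5:**
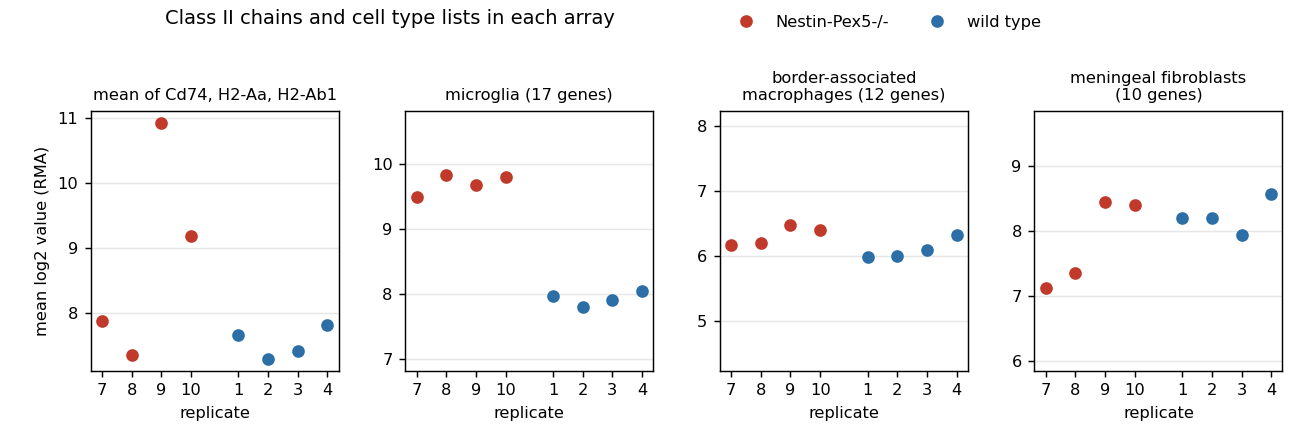
Mean log2 value per array (vertical axis, each panel spanning 4 log2 units) of *Cd74*, *H2-Aa* and *H2-Ab1* and of 3 cell type lists, with *Nestin-Pex5-/-* replicates 7 to 10 in red and wild type replicates 1 to 4 in blue. The class II mean is 10.92 in *Nestin-Pex5-/-* replicate 9 and 7.35 in replicate 8, whereas the microglia mean lies between 9.50 and 9.83 in all 4.

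The genes whose profile was most like that of the class II chains were sought by the root mean square difference between centred log2 values over the 8 arrays, with the mean of *Cd74*, *H2-Aa*, *H2-Ab1* and *H2-Eb1* as the profile. The 10 nearest genes were *Olr1*, *Ifi202b*, *Npl*, *Gsn*, *Serpina1b*, *Enpp6*, *Ccl8*, *Ccr1*, *Tpsab1* and *Sema3d*, at differences of 0.42 to 0.55, where the profile itself varied by 0.87 around its mean. *Olr1*, a scavenger receptor, was the nearest and read 3.98, 4.03, 5.24 and 5.20 in *Nestin-Pex5-/-* and 3.84, 3.76, 3.81 and 3.78 in wild type. *Ifi202b*, an interferon-induced gene, came next with 3.60, 3.53, 5.24 and 3.91 in *Nestin-Pex5-/-* and 3.60 to 3.97 in wild type. Both genes were dim, since the lowest values of the single arrays lay between 2.91 and 3.05. The members themselves lay at 0.28 for *H2-Aa*, 0.39 for *H2-Ab1*, 0.54 for *Cd74*, 0.72 for *H2-Oa*, 0.83 for *H2-DMa*, 0.84 for *Ciita*, 0.85 for *H2-Ob* and 0.995 for *H2-Eb1*. Of the chains that made up the profile 3 were thus near it, in part because they form it. *H2-Eb1*, the other, was the farthest member.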

How the data were processed

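The deposited table held log2 values of 45101 probe sets, which the authors made with RMA (background correction, quantile normalization and summary of the probes, version not given in the sources used here), and all 8 value columns were mapped to samples. The platform annotation gave 34958 probe sets 1 gene, 932 several and 9211 none, and 34754 symbols were brought to the GRCm38 annotation through the gene identifier. Among a gene's probe sets that of highest mean was used, for 18194 genes. Differences between genotypes were tested two-sided by limma 3.58.1 (R 4.3.3), using lmFit and eBayes with genotype as sole term, and p-values were adjusted by Benjamini-Hochberg over all genes, over the 34958 probe sets annotated to 1 gene for the members' other probe sets, or over all probe sets for shared ones, with a threshold of 0.05. The script was tested on simulated data. Members were also tested by exact permutation (two-sided, difference in means) over the 70 assignments of arrays, which cannot give a p below 0.029. The number of arrays limits the precision, and no detection call for dim probe sets was used.

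All members were named, with the neighbours in the region, up to 3 called genes of each other list (of a list without calls, the 2 of highest mean) and the 10 genes nearest in profile. *Ifngr1*, *Ifngr2*, *Ifi30*, *Lgmn*, *Marchf8*, the RFX genes, *Ifng*, *Mrc1*, *F13a1*, *Clec10a*, *Stab1*, *Siglec1* and the uncalled turnover genes were named beyond this rule, after their values were seen. So were *Cd163*, *Cbr2*, *Pf4*, *Folr2*, *Lyve1*, *Cd209f* and the uncalled interferon gamma response genes. The members and lists were chosen with earlier results of these data known. Promoters came from RefSeq (GRCm38.p6). Figures were drawn with matplotlib 3.10.9. Alternatives covered the choice of probe set, the level filter, scaling, normalization, variance settings, the threshold and leaving out each array.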

Additional observations from a re-analysis of the deposited data

Results flagged for a closer look

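Single arrays that lay far from the rest of their genotype were looked for in 146 groups of 4 arrays over 73 genes and probe sets, and 9 were found, where chance gives about 1 in 20 groups. *H2-Ob* read 4.32 in *Nestin-Pex5-/-* replicate 8, against 6.05 to 6.34 in the other *Nestin-Pex5-/-* arrays. The dim *H2-Aa* probe set 1443783_x_at read 3.61 in *Nestin-Pex5-/-* replicate 9, with the others at 3.23, and *Nkx2-1* read 6.14 in *Nestin-Pex5-/-* replicate 7, with the others at 6.01 to 6.02. In wild type replicate 4, *Icam1* read 5.59 (others 4.87 to 4.95), *Col11a2* 6.45 (6.07 to 6.12) and *Ttr* 10.51 (14.47 to 14.59). In wild type replicate 3, *Gusb* read 7.41 (7.64 to 7.68) and *Sema3d* 6.94 (7.16 to 7.19), and *C1qb* read 8.37 in wild type replicate 2 (8.72 to 8.74). The spread of *Cd74*, *H2-Aa* and *H2-Ab1* in *Nestin-Pex5-/-* was not found in this way, since 2 arrays were high and no single one stood alone.

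A signal outside the gene-level comparison came from the probe set 1449580_s_at, shared by *H2-DMb1* and *H2-DMb2*, which was 1.7-fold higher in *Nestin-Pex5-/-*.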

How the results depend on the processing

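The number of class II members called higher was 1 in the comparison as reported. It was 0 when genes below the median level were left out (which kept 3 members and not *H2-Ob*), with trend and robust variance settings, with each gene's own variance and at an adjusted p under 0.01. It was 3 with array weights, with *Cd74* (adjusted p = 0.0246) and *H2-Oa* (0.0331) beside *H2-Ob*, and 0 to 1 when single arrays were left out. It was 1 in the other 6 settings. Over 19 alternatives *Cd74* kept its direction, with log2 fold changes of 1.24 to 2.50 and adjusted p of 0.0246 to 0.346, and *H2-Ob* over its 18 had 1.58 to 2.25 and 1.8e-05 to 0.144. *H2-Aa* ranged from 0.12 to 1.64, *H2-Ab1* from 0.42 to 1.97 and *H2-Eb1* from -0.53 to -0.09, none of them called. When probe sets with names ending in _s_at or _x_at were left out, 7 members remained. *H2-Aa* then had no probe set, and *H2-Ab1* was at 1.40 (limma adjusted p = 0.320). Pathway genes called higher numbered 12 of 27 when genes below the median level were left out, against 19 of 43.

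All reversals were in genes that were not called. With the mean of all probe sets *Ciita* was at -0.0069 and *H2-DMb2* at -0.052, and with the smallest-p probe set at -0.092 and -0.094. Scaling to *Actb* gave -0.10 for *H2-DMa*, -0.075 for *Brd2*, -0.11 for *H2-DMb2* and -0.10 for *Slco1a4*, and scaling to 8 reference genes -0.030, -0.0024, -0.039 and -0.029. Array weights gave 0.0017 for *H2-Ea*, 0.0094 for *Btnl2* and 0.052 for *Itm2a*. When single arrays were left out, the log2 fold change ranged from -0.081 to 0.16 for *H2-DMa*, from -0.076 to 0.090 for *H2-DMb2*, from -0.093 to 0.48 for *Ifi202b*, from -0.049 to 0.061 for *Slco1a4*, from -0.15 to 0.036 for *Itm2a* and from -0.24 to 1.12 for *Ttr*. *Ifi202b* turned without *Nestin-Pex5-/-* replicate 9, and *Itm2a* and *Ttr* without wild type replicate 4. The causes were not tested.

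No paired analysis was possible because the genotypes share no replicate numbers. No measure of signal over background was used, so the share of background in dim probe sets, such as those of *H2-Ob* in wild type and of *Ciita*, is unknown.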

Other observations

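When the profile was taken from *Cd74*, *H2-Aa* and *H2-Ab1* only, a choice made after *H2-Eb1* had been seen to differ, the nearest gene was *Retnla*, which is known as a marker of alternatively activated macrophages. It read 5.52, 5.33, 9.18 and 8.07 in *Nestin-Pex5-/-* replicates 7 to 10, and 5.47, 6.26, 5.76 and 6.12 in wild type. The same arrays as for the class II chains were high, and the difference between genotypes did not pass the test (log2 fold change 1.12, limma adjusted p = 0.511). Next came *Olr1*, *Ifit3*, *Npl*, *Ifi202b*, *Tgm1*, *Samsn1*, *Plscr2*, *Serpina1b* and *Vim*. Of these 10 genes, 4 were also among the 10 nearest to the profile of all 4 chains. *Tgm1*, a transglutaminase, read 6.41, 6.42, 7.48 and 7.10 in *Nestin-Pex5-/-* and 4.86 to 5.05 in wild type, a rise of 1.86 (limma adjusted p = 0.00072), and *Samsn1* one of 1.77 (0.0158). The intermediate filament gene *Vim* was higher by 1.29 (0.0027).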
